A study of Arabidopsis thaliana with 14 samples.

Results

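Transcripts of 6 genes of coumarin and phenylpropanoid metabolism were followed in whole seedling roots of Arabidopsis thaliana, Columbia ecotype, during 72 h without iron. The genes were S8H (AT3G12900), F6'H1 (AT3G13610), F6'H2 (AT1G55290), COSY (AT1G28680), HCT (AT5G48930) and BGLU42 (AT5G36890), 6 of the 13355 genes that had a probe set paired with 1 gene alone. They were chosen by name, each had 1 such probe set, and all 6 passed the filter on low signal. Seedlings grew for 5 days on standard medium, which held iron as Fe(III)-EDTA. Their next medium, -Fe, lacked an iron source and contained the ferrous iron chelator Ferrozine at 0.3 mM, and roots were taken after 3, 6, 12, 24, 48 and 72 h. The standard group was moved to fresh standard medium for 3 h, which matches the handling of the 3 h group but of no later group. Every one of the 7 groups had 2 Affymetrix arrays. An array stands for 1 biological replicate of about 320 pooled roots, cut 0.5 mm below the hypocotyl junction. The labels give 5 days of growth before transfer and also a single harvest window on the sixth day, so the age of the 48 and 72 h roots is not settled.

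Coumarins such as scopoletin and fraxetin are phenolic compounds made from feruloyl-CoA, an intermediate of the phenylpropanoid pathway that also feeds lignin. Roots that lack iron secrete catechol coumarins such as fraxetin, which dissolve and reduce ferric iron in the soil around the root. HCT acts on the way to feruloyl-CoA, F6'H1 and F6'H2 hydroxylate feruloyl-CoA, COSY closes the coumarin ring, S8H turns scopoletin into fraxetin, and BGLU42 removes the sugar from stored coumarin glucosides.

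The arrays fell into 2 sets that followed the time course. All 18 spike-in probe sets, which report RNA added in fixed amounts, gave less signal at 48 and 72 h, without overlap between those 4 arrays and the 10 earlier ones, with geometric means of 378 to 440 against 2172 to 3232 in signal. The ratio of 3' to 5' signal also differed for the 2 actin pairs of probe sets: it was 2.27 to 5.20 and 1.10 to 1.58 at 48 and 72 h, against 5.38 to 14.1 and 1.65 to 2.59 on the other arrays. The GAPDH ratio was 0.476 to 0.480 against 0.551 to 0.846, and the ubiquitin ratio overlapped, at 2.02 to 2.84 against 1.75 to 6.21. The highest signal of an array was 11714 to 15134 at 48 and 72 h, against 27452 to 43173 on the other arrays. Its part in the changes of genes with high signal was not tested. Array set and treatment time therefore cannot be told apart in any comparison of 48 or 72 h with an earlier group. Comparisons among standard medium, 3, 6, 12 and 24 h lie within the earlier set, and the comparison of 72 h with 48 h lies within the later one. Replicate arrays correlated at 0.960 to 0.985 across probe sets.

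Signals below are those of a probe set on 1 array, replicate 1 before replicate 2, and are set against each other within a gene only. Changes are differences in log2(signal + 16) with their standard error, which understates the change of low signals. They were tested with limma over 13648 probe sets, and a change was called at an adjusted p (Benjamini-Hochberg) under 0.05.

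By 24 h without iron S8H, BGLU42 and F6'H1 were higher than on standard medium, with log2 changes of 4.76 ± 0.36, 2.31 ± 0.19 and 1.33 ± 0.24. COSY and HCT, each at 0.49 at 24 h, were not called then. They were called higher at 48 and 72 h, and F6'H2 was called lower, in comparisons that cross the array sets. The 3 genes called higher at 24 h encode a hydroxylase that starts coumarin synthesis, the hydroxylase that makes fraxetin and the glucosidase.

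**Figure D1:**
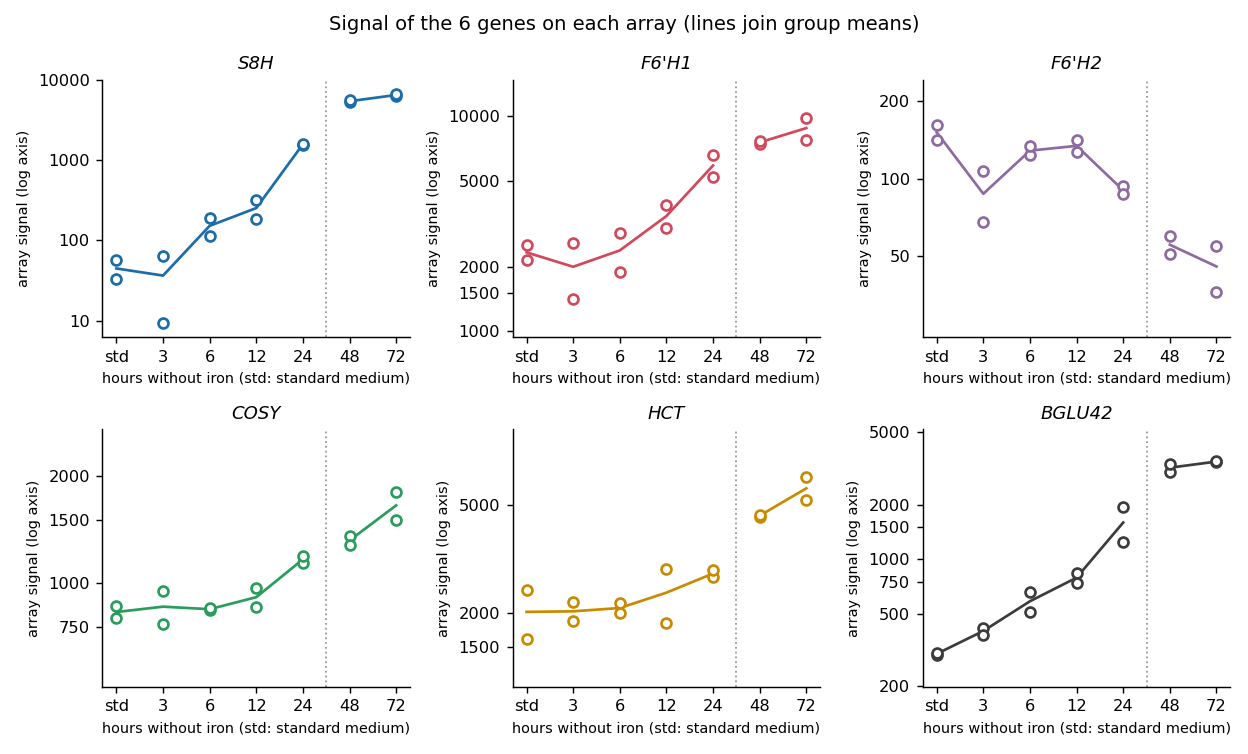
Signal (log axis, scaled for each gene) of the 6 genes on each of the 14 arrays against hours without iron, with standard medium (std) at the left; circles are arrays, lines join group means, and the dotted line parts the 2 array sets. S8H climbs to 6353 and 6788 at 72 h, while F6'H2 ends at 54.8 and 36.3.

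HCT encodes the hydroxycinnamoyl transferase that lies on the route to feruloyl-CoA and to lignin. Its signal was 1615 and 2436 on standard medium, 1873 and 2197 at 3 h, 2003 and 2183 at 6 h, and 1851 and 2914 at 12 h. It was 2717 and 2885 at 24 h, 4521 and 4611 at 48 h, and 6307 and 5199 at 72 h. Both 24 h arrays lay above both standard arrays, whereas each of the 3, 6 and 12 h groups overlapped the standard group. The log2 change at 24 h was 0.49 ± 0.21, with a 95% interval of 0.06 to 0.92, and it did not pass over all probe sets (adjusted p = 0.261). HCT was higher at 48 h (1.20 ± 0.21, adjusted p = 0.000152) and at 72 h (1.52 ± 0.21, adjusted p = 7.72e-06).

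F6'H1 encodes feruloyl-CoA 6'-hydroxylase 1, which catalyses the first step that belongs to coumarin synthesis. Its signal was 2507 and 2148 on standard medium, 1414 and 2578 at 3 h, 1881 and 2872 at 6 h, and 3850 and 3015 at 12 h. It was 5205 and 6573 at 24 h, 7426 and 7649 at 48 h, and 9815 and 7752 at 72 h. The 3 and 6 h arrays lay on both sides of the standard arrays, and from 12 h on each array was above both standard arrays. The log2 change was 0.00 ± 0.24 at 6 h, with an interval of −0.50 to 0.50, and 0.55 ± 0.24 at 12 h (adjusted p = 0.308). F6'H1 was higher at 24 h (adjusted p = 0.0017), 48 h (1.69 ± 0.24, adjusted p = 1.55e-05) and 72 h (1.90 ± 0.24, adjusted p = 2.93e-06). Without replicate 2 of 24 h the change at that time was 1.16 with an adjusted p of 0.0522. With quantile normalization the log2 change of F6'H1 at 48 h was 2.41.

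F6'H2 encodes a second enzyme with the same activity, and its signal was low throughout. It was 162 and 141 on standard medium, 67.9 and 107 at 3 h, 123 and 134 at 6 h, and 127 and 141 at 12 h. It was 93.4 and 87.0 at 24 h, 51.0 and 59.7 at 48 h, and 54.8 and 36.3 at 72 h. Each of the 12 arrays without iron lay below both standard arrays, though 12 h replicate 2 did so by less than 1 unit of signal. In the fit the changes from 3 to 24 h did not pass: the log2 change was −0.72 ± 0.26 at 3 h (adjusted p = 0.514), −0.21 at 6 h, −0.16 at 12 h and −0.66 ± 0.26 at 24 h (adjusted p = 0.217). F6'H2 was lower at 48 h (−1.23 ± 0.26, adjusted p = 0.000981) and at 72 h (−1.46 ± 0.26, adjusted p = 0.000158), where the lowest array, at 36.3, was under the filter level of 49.6.

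COSY encodes coumarin synthase, which completes the ring after the hydroxylation of feruloyl-CoA. Its signal was 797 and 858 on standard medium, 764 and 950 at 3 h, 839 and 847 at 6 h, and 965 and 858 at 12 h. It was 1139 and 1192 at 24 h, 1358 and 1278 at 48 h, and 1503 and 1807 at 72 h. Its arrays overlapped those of standard medium until 12 h and lay above them from 24 h on. The log2 change was 0.04 ± 0.16 at 3 h, with an interval of −0.30 to 0.38, and 0.49 ± 0.16 at 24 h, with an interval of 0.14 to 0.83 and an adjusted p of 0.13. COSY was higher at 48 h (0.66 ± 0.16, adjusted p = 0.00413) and at 72 h (0.98 ± 0.16, adjusted p = 9.09e-05), the smallest rise of the 5 genes called higher then. Both changes were below 2-fold, so neither is called where a 2-fold change is also required.

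S8H encodes scopoletin 8-hydroxylase, which makes the catechol coumarin fraxetin. Its signal was 33.0 and 56.5 on standard medium, 9.35 and 63.5 at 3 h, 115 and 190 at 6 h, and 323 and 186 at 12 h. It was 1577 and 1613 at 24 h, 5361 and 5608 at 48 h, and 6353 and 6788 at 72 h. The 2 arrays of 3 h spanned those of standard medium, and every array from 6 h on lay above both of them. At 6 h the log2 change was 1.46 ± 0.36 (adjusted p = 0.0575), which passed without 3 h replicate 1 (0.00516), 3 h replicate 2 (0.00545) or 12 h replicate 2 (0.0498), and with the replicate number as a block (0.0346). The 6 h change was also called with a pseudocount of 64. It stayed uncalled under 21 of 26 alternative settings, and over all 26 it ran from 0.98 to 1.79. S8H was higher at 12 h (2.13 ± 0.36, adjusted p = 0.00159), 24 h (adjusted p = 4.27e-08), 48 h (6.53 ± 0.36, adjusted p = 5.24e-11) and 72 h (6.79 ± 0.36, adjusted p = 1.67e-11). The mean signal of S8H on standard medium, 44.7, was under the filter level of 49.6, and the probe set passed the filter by its groups without iron, so it had to differ between groups. The size of the S8H change moved with the pseudocount: at 72 h it was 7.22 with a pseudocount of 1 and 5.94 with 64.

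BGLU42 encodes a β-glucosidase that releases coumarins from their glucosides in roots. Its signal was 298 and 305 on standard medium, 421 and 385 at 3 h, 510 and 665 at 6 h, and 843 and 743 at 12 h. It was 1253 and 1938 at 24 h, 3036 and 3360 at 48 h, and 3451 and 3463 at 72 h. Each of the 12 arrays without iron lay above both standard arrays, and at each time both arrays lay above both arrays of the time before. The log2 change was 0.40 ± 0.19 at 3 h, with an interval of 0.00 to 0.80 and an adjusted p of 0.686. BGLU42 was higher at 6 h (0.91 ± 0.19, adjusted p = 0.0224), 12 h (1.35 ± 0.19, adjusted p = 0.000292), 24 h (adjusted p = 2.21e-07), 48 h (3.34 ± 0.19, adjusted p = 8.62e-11) and 72 h (3.45 ± 0.19, adjusted p = 3.43e-11). The call at 6 h was lost without standard replicate 1 (adjusted p = 0.138), standard replicate 2 (0.0752) or 6 h replicate 2 (0.183), and in the earlier array set alone (0.0736).

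At 3 h, 0 of the 6 genes were called with limma, against 0.022% of all tested probe sets, and 1 had an unadjusted p under 0.05, as did 7.28% of tested probe sets. At 6 h 1 gene was called higher, BGLU42, against 0.366% of tested probe sets. At 12 h 2 genes were, S8H and BGLU42, against 1.07%. At 24 h the 3 genes called higher stood against 1.61%, and all 6 genes had an unadjusted p under 0.05, as did 14% of tested probe sets. The background was far higher in the comparisons that cross the array sets. At 48 h 5 genes were called higher and 1 lower, against a background of 15.9% higher and 15.6% lower among tested probe sets, and at 72 h the same counts stood against 18.3% and 17.6%. The median log2 change of the 6 genes was 0.91 at 24 h and 1.71 at 72 h, beside 0.02 and 0.07 over all tested probe sets. All 6 comparisons use the same 2 standard arrays. In RNA from whole roots, fewer cells that express a gene and less RNA per cell cannot be told apart.

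**Figure D2:**
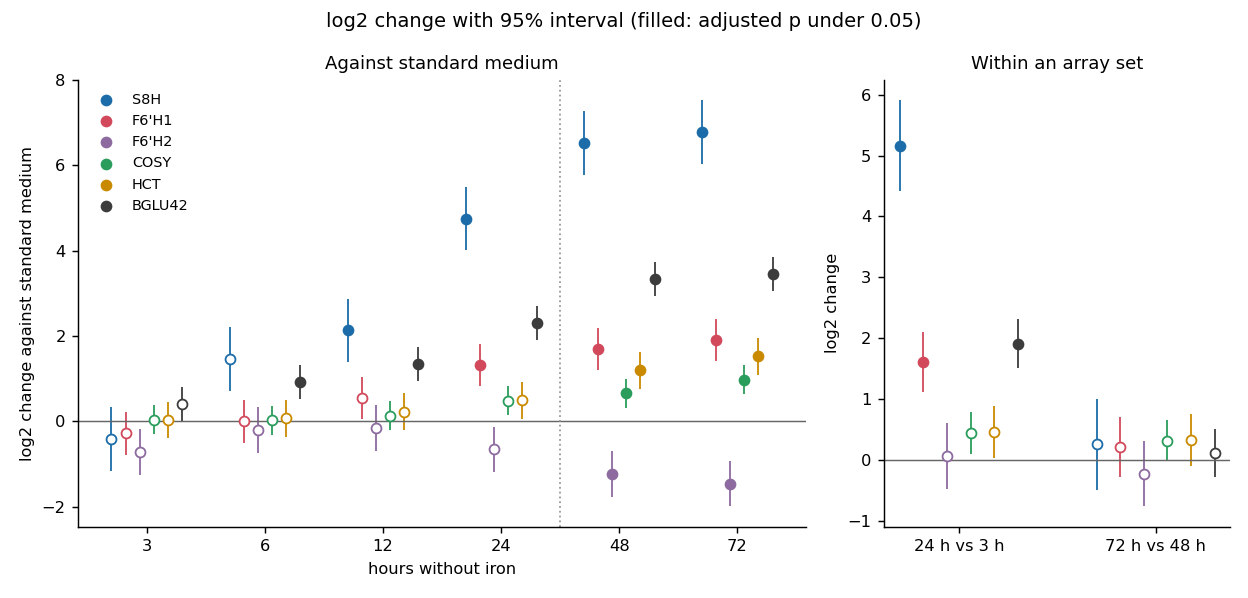
Left, log2 change against standard medium at each time without iron; right, log2 change of 24 h against 3 h and of 72 h against 48 h. Points are estimates over 2 arrays a group with 95% intervals, filled where the adjusted p was under 0.05; S8H, F6'H1 and BGLU42 are filled for 24 h against 3 h, and no gene is for 72 h against 48 h.

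The time at which a gene left the standard range differed among the 6 genes, taking the first time from which every array up to 72 h lay beyond both standard arrays. BGLU42 was above from 3 h, as were 2.21% of tested probe sets, and F6'H2 was below from 3 h, as were 2.67%. S8H was above from 6 h (3.71% of tested probe sets) and F6'H1 from 12 h (6.86%). COSY and HCT were above from 24 h (13.2%). This order is a description of 2 arrays per time, and no test was made of it. It also depends on how far apart the 2 standard arrays lay, at 298 and 305 for BGLU42 but 1615 and 2436 for HCT.

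Steps between neighbouring times show when the signal moved, without reference to the standard arrays. Between 3 and 6 h 1 gene was called higher, S8H (1.87 ± 0.36, adjusted p = 0.0254), against 0.0513% of tested probe sets. That step was 1.05 with an adjusted p of 0.346 without 3 h replicate 1, the array at 9.35. It also missed the threshold without 6 h replicate 1 (adjusted p = 0.0535) or 6 h replicate 2 (0.208). Between 6 and 12 h 0 of the 6 genes were called with limma, against 0.044%, and 2 had an unadjusted p under 0.05, as did 7.06%. Between 12 and 24 h 2 genes were called higher, against 0.322%: S8H (2.62 ± 0.36, adjusted p = 0.00074) and BGLU42 (0.96 ± 0.19, adjusted p = 0.0233). The BGLU42 step lost its call without 12 h replicate 1 (adjusted p = 0.0613), 12 h replicate 2 (0.17) or 24 h replicate 2 (0.652), while that of S8H was called under each alternative. F6'H1 was at 0.78 ± 0.24 for this step (adjusted p = 0.32), with both 24 h arrays above both 12 h arrays, as in 17.3% of tested probe sets.

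Over the whole first day, from 3 to 24 h, 3 genes were called higher, against 1.01% of tested probe sets. S8H rose by 5.16 ± 0.36 on the log2 scale (adjusted p = 1.76e-08), BGLU42 by 1.91 ± 0.19 (adjusted p = 3.3e-06) and F6'H1 by 1.61 ± 0.24 (adjusted p = 0.000325). HCT was at 0.46 (interval 0.03 to 0.89) and COSY at 0.44 (0.10 to 0.79), and neither passed. F6'H2 was at 0.06, with an interval of −0.47 to 0.60, since its signal at 24 h was no lower than at 3 h.

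A line through log2(hours) over the 8 arrays of 3, 6, 12 and 24 h gave the rate per doubling of time, and used neither the standard arrays nor the later set. Of the 6 genes 3 had a rising slope, against 0.799% of tested probe sets. The slope of S8H was 1.62 ± 0.14 (adjusted p = 1.44e-06), where the central 95% of all slopes ran from −0.22 to 0.22. Its mean signal at 3 h, 36.4, was under the filter level, and the slope of S8H was 1.86 with a pseudocount of 1 and 1.28 with 64. BGLU42 had a slope of 0.62 ± 0.07 (adjusted p = 2.83e-05) and F6'H1 one of 0.54 ± 0.08 (adjusted p = 5e-04). HCT, at 0.15 ± 0.06 (adjusted p = 0.38), and COSY, at 0.14 ± 0.06 (adjusted p = 0.382), did not pass, and F6'H2 was at 0.02 ± 0.10.

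**Figure D3:**
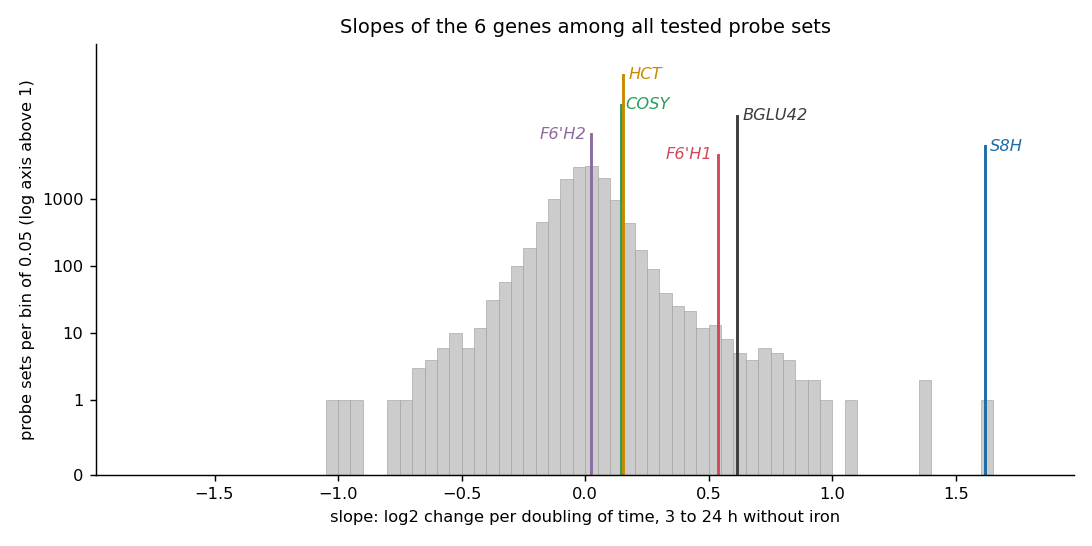
Histogram of the slopes of all 13648 tested probe sets, as log2 change per doubling of time over the 8 arrays of 3 to 24 h (bins of 0.05, log count axis above 1), with a line for each of the 6 genes; the heights of the lines carry no value. S8H stands at 1.62, F6'H1 and BGLU42 at 0.54 and 0.62, and the other genes at 0.02 to 0.15, inside the bulk.

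From 24 to 48 h, a step that also crosses the array sets, 3 genes were called higher, where 11.1% of tested probe sets were. They were S8H (1.77 ± 0.36, adjusted p = 0.00105), BGLU42 (1.03 ± 0.19, adjusted p = 0.000504) and HCT (0.70 ± 0.21, adjusted p = 0.0169). HCT lost this call without any 1 of the 4 arrays, with adjusted p values of 0.0617 to 0.103. F6'H1 was at 0.36 ± 0.24 (adjusted p = 0.3), and at 1.12 with an adjusted p of 0.00161 after quantile normalization. From 48 to 72 h, within the later set, 0 of the 6 genes were called with limma, against 0.0147%, and 0 had an unadjusted p under 0.05, where 4.16% of tested probe sets did. The log2 changes were 0.33 for HCT, 0.32 for COSY, 0.26 for S8H, 0.21 for F6'H1, 0.11 for BGLU42 and −0.23 for F6'H2, and every interval held 0. For 5 of the 6 genes both 72 h arrays nevertheless lay above both 48 h arrays, as did those of 19.6% of tested probe sets.

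Relative to its own mean signal at 72 h, F6'H1 had reached 67.0% at 24 h and COSY 70.4%, while HCT had reached 48.7%, BGLU42 46.1% and S8H 24.3%. At 48 h the same shares were 85.8% for F6'H1, 79.6% for COSY, 79.4% for HCT, 92.5% for BGLU42 and 83.5% for S8H. On standard medium the share was already 50.01% for COSY, 35.2% for HCT, 26.5% for F6'H1, 8.73% for BGLU42 and 0.681% for S8H. The shares at 24 h include this starting level, so they do not rank the genes by how much of their rise was complete. The shares at 24 h and on standard medium cross the array sets.

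Whether the genes changed by different amounts was tested on the difference of their log2 values within each array, with exact two-sided permutation tests over arrays and adjustment over the 10 tests made. The 2 feruloyl-CoA hydroxylase genes parted: F6'H1 moved by 1.64 more than F6'H2 on the log2 scale between the 2 arrays of 24 h and the 8 earlier arrays (exact permutation, adjusted p = 0.0278). The difference was 2.47 between the 4 arrays of 48 and 72 h and the other 10 (exact permutation, adjusted p = 0.00333). That split is also the one between the 2 array sets. In this test and those of 48 and 72 h that follow, array set and time therefore cannot be told apart. S8H moved by 2.70 more than F6'H1 and by 2.31 more than BGLU42 at 24 h (exact permutation, adjusted p = 0.0278 for each; 0.0556 for S8H and BGLU42 with a pseudocount of 1), and by 3.59 and 2.67 more at 48 and 72 h (adjusted p = 0.00333 for each, by exact permutation). BGLU42 moved by 0.39 more than F6'H1 at 24 h, which did not pass (exact permutation, adjusted p = 0.346), and by 0.92 more at 48 and 72 h (exact permutation, adjusted p = 0.00999, or 0.0612 after quantile normalization). HCT and COSY differed by −0.03 at 24 h (exact permutation, adjusted p = 0.911), and HCT moved by 0.51 more than COSY at 48 and 72 h (exact permutation, adjusted p = 0.00749). S8H was under the filter level on standard medium, so it had to differ between groups to be tested at all. The outcome of the tests with S8H was thus partly fixed by the filter, and their p values carry that limit. In the tests of 24 h, the 8 earlier arrays join standard medium with earlier times without iron. The smallest unadjusted p these designs allow is 0.0222 for 2 arrays against 8 and 0.000999 for 4 against 10.

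Across the 10 arrays of standard medium to 24 h, S8H correlated with F6'H1 at a Pearson r of 0.93, with BGLU42 at 0.93 and with COSY at 0.91. F6'H1 and COSY correlated at 0.91, and HCT correlated with the other rising genes at 0.57 to 0.65. F6'H2 was at −0.39 to −0.07 with the other 5 genes. These values describe arrays grouped by time and carry no test.

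Among 7355 other tested probe sets paired with 1 gene, likeness was ranked by Pearson r over the same 10 arrays. The 5 highest were taken for each of the 3 genes called higher at 24 h. For S8H the 5 highest were AT4G19370 (0.98), AT3G61930 (0.97), AT1G74770 (0.97), AT3G07720 (0.94) and bHLH101 (0.94). For F6'H1 they were the glucosyltransferase gene UGT72E1 (0.97), AT3G59910 (0.95), S8H (0.93), the metal transporter gene MTP8 (0.93) and AT4G19370 (0.92). For BGLU42 they were AT3G61930 (0.97), bHLH101 (0.96), AT4G19370 (0.96), AT5G19970 (0.95) and AT1G74770 (0.95). AT4G19370 stood in all 3 lists, and AT3G61930, AT1G74770 and bHLH101 in those of S8H and BGLU42.

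Of 37 further genes listed for coumarin, general phenylpropanoid, lignin and flavonoid metabolism, 6 had a probe set paired with 1 gene and 5 passed the filter; the others were not analysed here. With the 6 genes above, HCT was thus the 1 gene tested upstream of feruloyl-CoA. At 24 h 1 of the 5 was called higher, against 1.61% of tested probe sets: UGT72E1, which glucosylates the aldehydes of lignin precursors. It was higher by 1.08 ± 0.22 (adjusted p = 0.00527), and lost the call without standard replicate 2 (adjusted p = 0.0513) or 24 h replicate 2 (0.12). Its slope from 3 to 24 h was 0.45 ± 0.08 (adjusted p = 0.00454, but 0.0753 without 24 h replicate 2 and 0.0544 with no trend in the prior). At 48 and 72 h, where 15.9% and 18.3% of tested probe sets were called higher, UGT72E1 was higher by 1.82 and 2.16. UGT72E2, which glucosylates coniferyl alcohol, was higher by 0.72 and 0.73, and CCR2, a cinnamoyl-CoA reductase gene of lignin synthesis, by 1.29 and 1.72. UGT72E2 lost its call at 48 h without standard replicate 1 (adjusted p = 0.051), standard replicate 2 (0.16) or 48 h replicate 2 (0.313), and at 72 h without standard replicate 2 (0.14) or 72 h replicate 2 (0.245). CCR2 lost it at 48 h without standard replicate 2 (0.102) or 48 h replicate 1 (0.0521). UGT72E3, a close relative of UGT72E2, was lower at 72 h (−0.75 ± 0.27, limma adjusted p = 0.0356), where 17.6% of tested probe sets were called lower. That call was lost without any 1 of the 4 arrays compared.

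BGLU42 was set beside the other β-glucosidase genes of its family, a list made after its values had been seen. The family held 47 genes in the reference table, of which 22 had a probe set paired with 1 gene and 8 passed the filter, BGLU42 included. Of the other 7, 0 were called with limma from 3 to 24 h. Over all tested probe sets, 0.022%, 0.945%, 2.63% and 3.62% were called in either direction at 3, 6, 12 and 24 h. With shares this small, 0 of 7 does not part these genes from other probe sets. The log2 changes of the 7 at 24 h ran from −0.37 to 1.21. BGLU45 stood at the top of that range, with an adjusted p of 0.0593, which passed without standard replicate 1 (0.0278) or 24 h replicate 2 (0.0392), with a pseudocount of 64 (0.0422) and with the replicate block (0.0317). At 48 and 72 h 1 was higher, BGLU25 (2.14 and 1.51), and 3 were lower: BGLU23 (−1.47 at both times), which encodes PYK10, the main β-glucosidase of root endoplasmic reticulum bodies, BGLU46 (−1.41 and −1.39) and BGLU16 (−1.07 and −1.15). These comparisons cross the array sets, and 15.9% and 18.3% of tested probe sets were called higher in them and 15.6% and 17.6% lower. After quantile normalization BGLU23 was at −0.54 and −0.60, still called, and without standard replicate 1 BGLU46 was at −0.86 and −0.84. BGLU42 changed by 3.34 and 3.45 at these times.

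Genes of iron control were set beside the 6 genes. IMA1, the gene of a small peptide that activates iron uptake, was at 3.01 at 24 h, and bHLH101, a transcription factor gene of the iron response, was at 2.79. MTP8, a vacuolar manganese transporter gene, was at 1.91, and PYE (POPEYE), a bHLH regulator gene, at 1.40. All 4 were called higher at 24, 48 and 72 h, against 1.61%, 15.9% and 18.3% of tested probe sets, although PYE at 24 h lost its call without standard replicate 2 (adjusted p = 0.0534) or 24 h replicate 2 (0.0503). S8H, at 4.76, was above each of them at 24 h, BGLU42, at 2.31, lay between bHLH101 and MTP8, and F6'H1, at 1.33, lay near PYE. These orders were not tested.

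**Figure D4:**
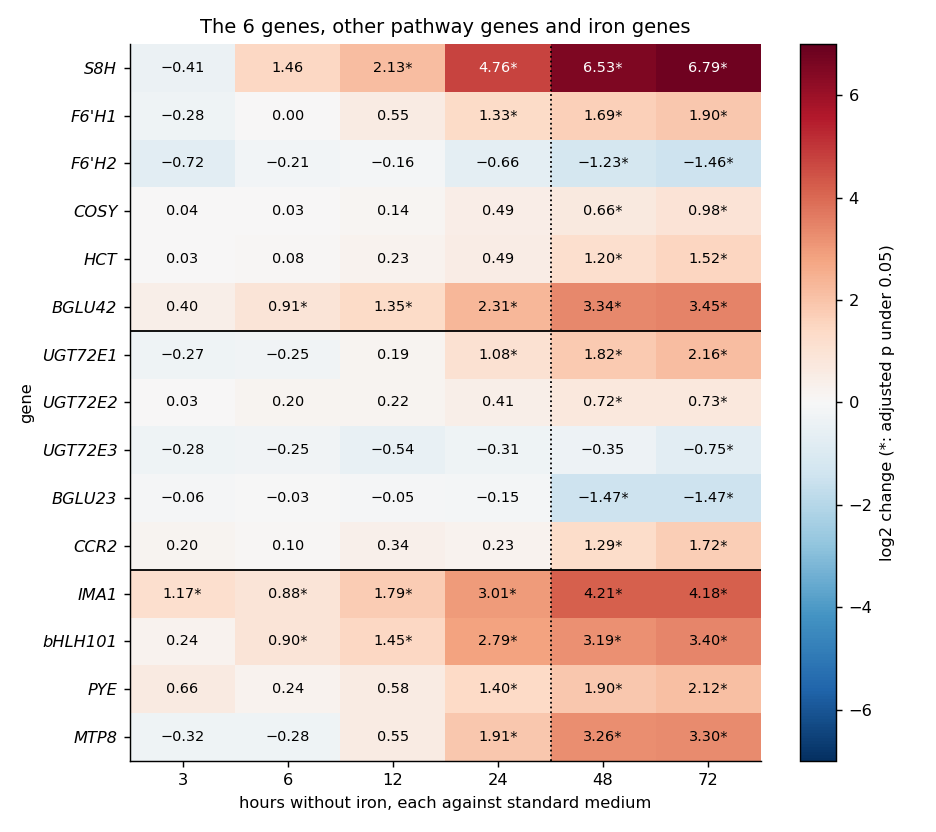
log2 change against standard medium at each time without iron for the 6 genes (top), 5 other tested genes of the pathway (middle) and 4 iron genes (bottom); colour and number give the log2 change and an asterisk an adjusted p under 0.05. S8H reaches 6.79 at 72 h, and F6'H2, UGT72E3 and BGLU23 are the genes below 0 there.

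Markers of root cell types were followed over the same times. The 2 of 5 root hair markers with a probe set paired with 1 gene, EXPA7 and EXPA18, had a summed signal of 1387 to 1598 at 3 h, 1078 to 1385 at 24 h, 406 to 428 at 48 h and 185 to 246 at 72 h, against 2293 to 3345 on standard medium. EXPA18 was at −0.95 at 3 h (adjusted p = 0.152) and at −3.88 at 72 h (adjusted p = 2.7e-11). Neither gene was called at 3 h, EXPA18 was called lower from 6 h on and EXPA7 from 12 h on. Over all tested probe sets, 0.579%, 1.56% and 2.01% were called lower at 6, 12 and 24 h. At 48 and 72 h, in comparisons that cross the array sets, 15.6% and 17.6% were. Without standard replicate 1, EXPA18 lost its call at 6 and 12 h and EXPA7 at 12 and 24 h (adjusted p from 0.0791 to 0.445). Without either array of the time itself, EXPA18 lost it at 6 h and EXPA7 at 12 and 24 h (0.074 to 0.259). The 2 of 4 green tissue markers summed to 614 to 674 on standard medium and 641 to 1120 at 24 h. Their sum was 122 to 126 at 48 h and 81.2 to 102 at 72 h. Both were called lower at 48 and 72 h, again across the array sets, but at no earlier time. The endodermis marker SGN3 (1 of 5 listed) and the marker of dividing cells MCM7 (1 of 3) were called at none of the 6 times (SGN3 had an adjusted p of 0.0489 at 72 h with arrays centred on the median), and at 24 h their signals were 430 to 450 and 225 to 235, against 534 to 536 and 209 to 277 on standard medium. No xylem or phloem marker had such a probe set, the 1 of 3 cortex and epidermis markers was under the filter, and no marker was at 0. The part of these markers in the changes of the 6 genes was not tested. The rise of S8H, BGLU42 and F6'H1 between 3 and 24 h was measured while the root hair sum was 1387 to 1598 at 3 h and 1078 to 1385 at 24 h.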

How the data were processed

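Biotin-labelled cRNA came from one-cycle amplification, per the labels' protocols. The deposited values were linear intensities of probe sets, for which the submitters' processing notes name MAS5, with its version not given in the sources used here. The authors' scaling was kept: trimmed by 2% at either end, the mean of every array was 250.02. All 14 columns were matched to samples, with 0 left over. Of 22810 probe sets, 13513 were paired with 1 gene in the platform table, 503 with several and 8794 with none, and 64 controls were left out. The 40% with the lowest mean were removed (a signal of 49.6). The other 13648 were fitted with limma 3.58.1 in R 4.3.3, with 7 group means, 7 residual degrees of freedom and a trend of the prior variance with the mean. The slope fit had 8 arrays and 6 residual degrees of freedom. The code of the limma comparison of 24 h with standard medium and of the slope fit was tested on simulated data. Replicate numbers were not taken to pair the arrays. Between groups, the deviations of replicate 1 from its group mean correlated at r from −0.14 to 0.27 (21 group pairs, median 0.05). Of these, 4 were over 0.1, and the highest was that of 48 with 72 h. These values do not settle whether replicate numbers mark shared handling. The 2 arrays per group limit the precision. The genes, lists, rules and tests were chosen with earlier results of these data known. Named genes were the 6 genes, the tested genes of the lists and the 5 probe sets most like each gene called at 24 h. Whether probes cross-hybridise was not tested, and sequences were not used here.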

Additional observations from a re-analysis of the deposited data

How the results depend on the processing

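The 6 genes gave 78 log2 changes or slopes, and 1943 values under alternative settings, of which 1906 stayed on their side of the threshold (25 of them, uncalled, changed sign), 31 lost a call, 6 gained one and 0 called values turned direction. Of 30 calls, 23 held under every alternative run. COSY lost its calls at 48 and 72 h with a 2-fold threshold, where 5 genes were called at each time instead of 6. UGT72E2 and UGT72E3 lost theirs with it too. For 6 h against standard medium, where 1 gene was called, the count was 0 with a 2-fold threshold, with no trend in the prior, in a fit of only the arrays compared and in the earlier array set alone, 2 with a pseudocount of 64 and 2 with the replicate block, and 0 to 2 with an array left out. For 6 h against 3 h, where 1 was called, it was 0 with no filter, no trend, a robust prior, only the arrays compared and the earlier array set alone, and 0 to 1 with an array left out. For 24 h against 12 h, where 2 were called, it was 1 with a 2-fold threshold, no filter, no trend, only the arrays compared and the earlier array set alone, and 1 to 2 with an array left out. The replicate block changed no other call of the 6 genes. The difference in change of S8H and BGLU42 at 24 h was 2.63 with a pseudocount of 1 (exact permutation, adjusted p = 0.0556), and that of BGLU42 and F6'H1 at 48 and 72 h was 0.49 with quantile normalization (exact permutation, adjusted p = 0.0612). With an array left out, the difference at 24 h was 1.43 to 1.86 for F6'H1 and F6'H2, 2.52 to 2.85 for S8H and F6'H1 and 2.02 to 2.61 for S8H and BGLU42, and 1 array against 8 cannot pass. The filter at 60% removed F6'H2. Apart from the settings with fewer arrays or genes, the cause was not tested. Signals near the filter level, as for S8H until 3 h and F6'H2 at 48 and 72 h, limit the size of a change.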
